A study of Homo sapiens with 5 samples.

Results

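NRF2 is the transcription factor that carries the cell's answer to oxidants and electrophiles. When freed from its repressor KEAP1, it pairs with a small MAF protein and binds the antioxidant response element (ARE) near genes whose enzymes reduce quinones, aldehydes and ketones, hydrolyse epoxides or pump conjugated toxins out of the cell. SWI/SNF complexes, with BRG1 as the ATPase and ACTL6A as an actin-related subunit, move nucleosomes and so change access to such sites. The NRF2 targets examined here were the reductases *NQO1*, *AKR1B10*, *AKR1C1*, *AKR1C2* and *AKR1C3*, the epoxide hydrolase *EPHX1*, the export pumps *ABCC1* and *ABCC2*, and the NRF2-induced genes *OSGIN1* and *PIR*. These 10 genes, of 19689 with a protein-coding transcript in GENCODE release 44, were chosen by name, and every peak over each gene and 10 kb to each side was taken.

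The peaks come from CUT&Tag in SNU638, a human cell line established from gastric cancer, for which no treatment is named. Antibodies to ACTL6A, BRG1 and NRF2 gave 1 library apiece, and the control IgG gave a pair, called IgG 1 and IgG 2. CUT&Tag cuts and tags the DNA around an antibody's target with a tethered Tn5 transposase. No antibody was replicated and no condition was compared, so no test was made, and a missing peak says only that the caller named none there. There were 23917 peaks for ACTL6A, 48793 for BRG1, 9045 for NRF2, 11 for IgG 1 and 1746 for IgG 2, and the read depth behind them is not in the lists. The fragments at a summit, worked out from the fold and p-value that the caller gave, had a median of 6 for ACTL6A, 10 for BRG1 and 17 for NRF2. The lowest number in a called peak was 3 for ACTL6A and for BRG1 but 8 for NRF2, so a weak site could enter the first 2 lists and not the NRF2 list. Of 6 epithelial marker genes, 5 had a BRG1 peak at a start and 4 an ACTL6A peak there (*EPCAM*, *KRT8*, *KRT18* and *KRT19*), and 0 had an NRF2 peak there. *CDH1* had BRG1 alone and *CLDN4* had no peak at a start. Over all genes the shares were 63.5% for BRG1, 38.5% for ACTL6A and 28.1% for NRF2.

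NRF2 was called at the starts of only 2 of the 10 genes, *NQO1* and *OSGIN1*, and at no gene was a distal NRF2 peak found in place of a missing one at the start. Peaks counted as lying at the transcriptional start site (TSS) if they came within 1 kb of a protein-coding TSS of the gene, and as distal if they were in the region but within 1 kb of no protein-coding TSS of any gene. NRF2 TSS peaks were found at 28.1% of all 19689 genes. ACTL6A had a TSS peak at 4 of the 10 genes, against 38.5% of all genes, and BRG1 at 5, against 63.5%. *NQO1* and *OSGIN1* had all 3 antibodies at the TSS, which 22.1% of all genes had. *EPHX1* and *PIR* had ACTL6A and BRG1, *ABCC1* had BRG1 alone, and the remaining 5, *AKR1B10*, *AKR1C1*, *AKR1C2*, *AKR1C3* and *ABCC2*, had no antibody peak at a TSS, against 34.4% of all genes. Among genes with a BRG1 TSS peak, 43.6% also had NRF2 and 58.0% ACTL6A there, and of the 5 such genes here 2 and 4 did. These counts lie near the shares over all genes.

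**Figure D1:**
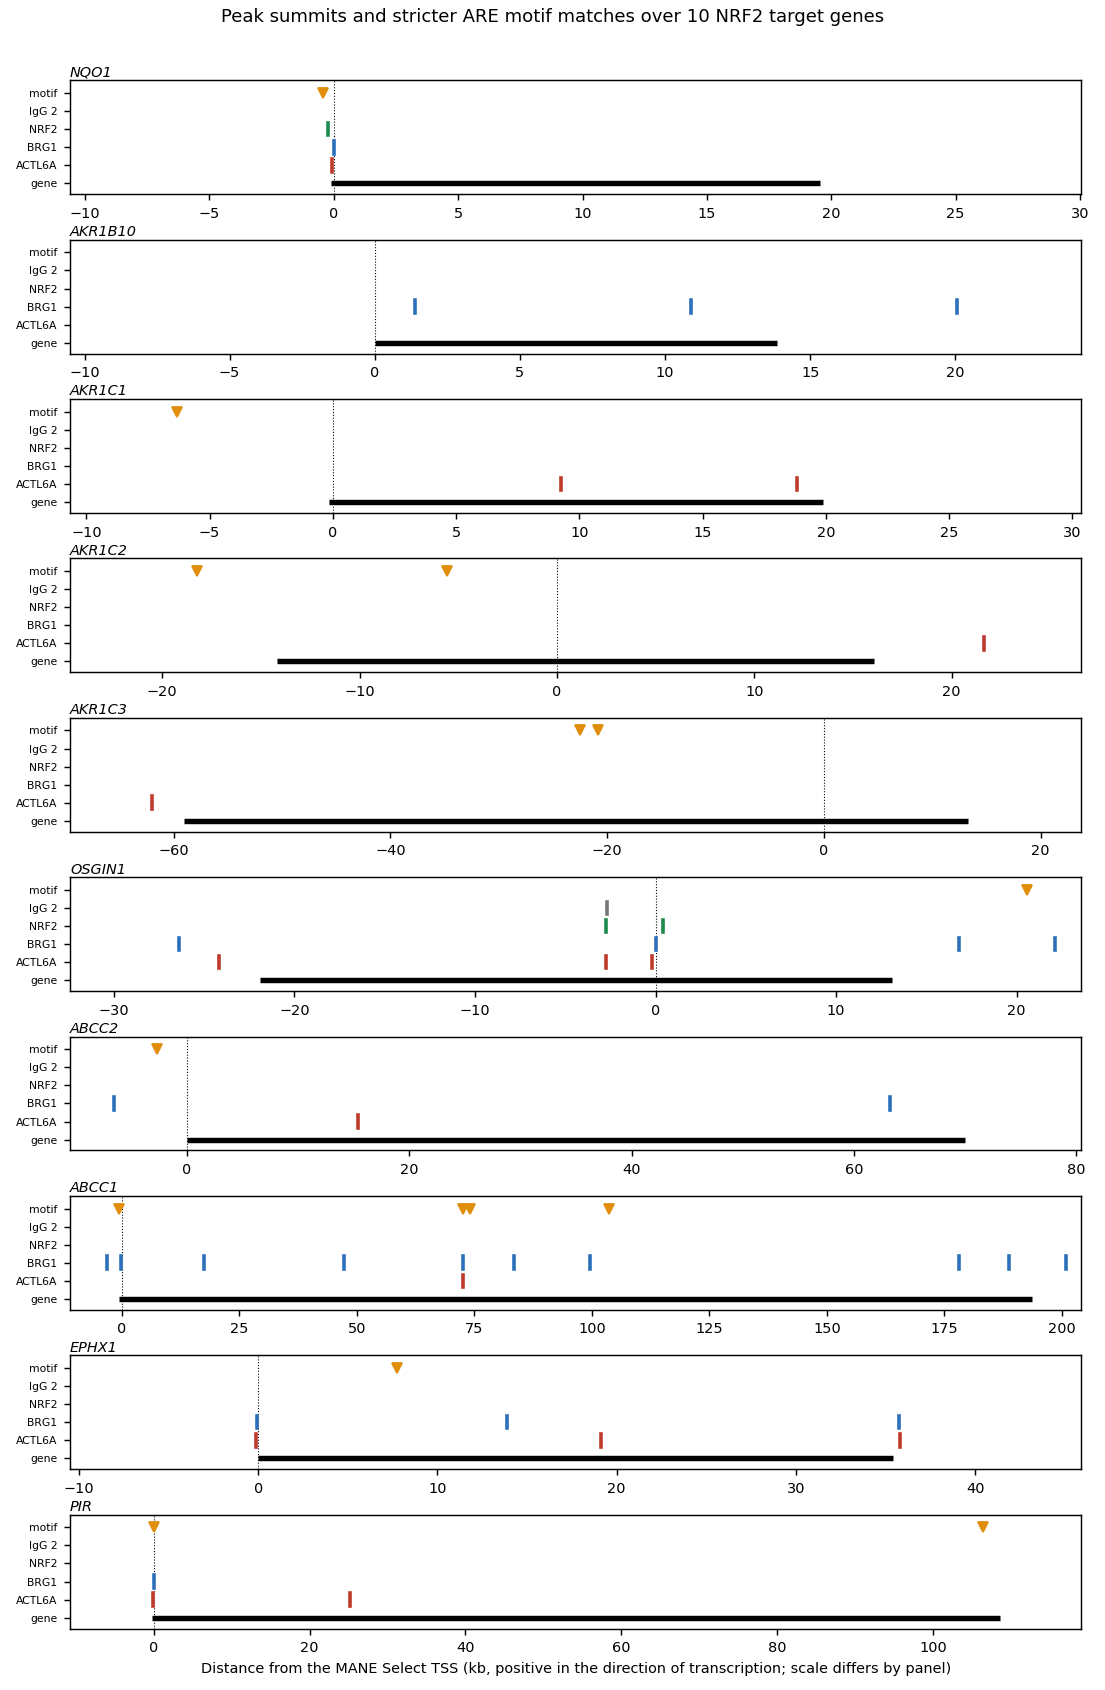
Summits of the ACTL6A, BRG1, NRF2 and IgG 2 peaks over each gene and 10 kb to each side, by distance from the MANE Select TSS in kb (dotted line), with the annotated gene as a black bar and matches to the stricter ARE core as triangles. The 3 NRF2 peaks are over *NQO1* and *OSGIN1*, while 15 motif matches are spread over 9 of the 10 genes.

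*NQO1* encodes a quinone reductase and is among the best-studied NRF2 targets. It lies on the minus strand at chr16:69706996-69726668 (GRCh38), and its MANE Select transcript starts at 69726560. The ACTL6A peak at this TSS covered chr16:69726428-69727052, with its summit 60 bp upstream, and 30 fragments were recovered there where 1.15 were expected (95% Poisson interval of the 30, 20.2 to 42.8, for counting error only, since PCR copies are not separate molecules). The BRG1 peak covered chr16:69726388-69726987, with 43 fragments (31.1 to 57.9) against 2.20 expected, and its summit 4 bp upstream. The NRF2 peak, chr16:69726446-69727254, was the widest of the 3 at 809 bp, with 54 fragments (40.6 to 70.5) against 6.33 expected, and its summit was farther out, 234 bp upstream. No IgG peak touched any of them. By -log10 q the ACTL6A peak ranked 328 in its list (highest 1.37%), the BRG1 peak 2266 (4.64%) and the NRF2 peak 446 (4.93%), and among the 4740 NRF2 peaks at a TSS the last ranked 88. So *NQO1* stood high in each list, above every other peak of the 10 genes in the ACTL6A and NRF2 lists.

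The ARE was searched on both strands as the core TGACNNNGC and as the stricter TGACTCAGC, which also contains the AP-1 site TGACTCA. A match is a description of the letters and not a bound site. The NRF2 peak at *NQO1* held 1 match to the core, the stricter form at chr16:69727007-69727015, 451 bp upstream of the TSS and 217 bp upstream of the NRF2 summit. It lay inside the NRF2 and ACTL6A peaks and 20 bp beyond the edge of the BRG1 peak. The stretch that carries it, chr16:69726769-69727068 on the minus strand, is printed 5′ to 3′ with the match in capitals.
*NQO1* upstream: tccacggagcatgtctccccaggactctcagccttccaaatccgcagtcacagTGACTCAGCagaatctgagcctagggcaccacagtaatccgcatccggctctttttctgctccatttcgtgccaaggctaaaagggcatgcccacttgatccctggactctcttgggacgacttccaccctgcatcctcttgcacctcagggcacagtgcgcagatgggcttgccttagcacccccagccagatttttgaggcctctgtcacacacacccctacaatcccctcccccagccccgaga

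The stricter form is rare at starts. It was found in 0.949% of the NRF2 peaks at a TSS (45 of 4740) and in 0.561% of 35116 RefSeq promoters (GRCh38.p14, 250 bases before to 50 after the start), where the core was in 13.3%. *NQO1* was the only 1 of the 10 genes with a core match inside an NRF2 peak. Over all genes, 54.4% had a core match within 1 kb of the MANE Select TSS, and at 12.9% of those genes a match lay inside an NRF2 peak. Core matches were counted for each gene, and the regions of *AKR1C1*, *AKR1C2* and *AKR1C3* overlap in part, so some can count more than once. The regions of the 10 genes held 275 core matches by this count, 15 of them the stricter form. Of the 275, 12 were within 1 kb of a TSS of their gene. These 12 were at *OSGIN1* (3), *AKR1C3*, *EPHX1* and *PIR* (2 each), and *NQO1*, *AKR1B10* and *ABCC1* (1 each), and none but those of *NQO1* and 1 of *PIR* lay in a peak of any list.

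*OSGIN1*, an oxidative stress-induced growth inhibitor, lies on the plus strand at chr16:83931311-83966332, with the MANE Select TSS at 83953240. ACTL6A (chr16:83952902-83953269, 12 fragments against 1.56 expected), BRG1 (chr16:83952935-83953854, 28 against 3.09) and NRF2 (chr16:83952970-83953676, 27 against 5.53) all had a peak at this TSS. Their ranks were 7706 for ACTL6A, 9576 for BRG1 and 2906 for NRF2, in the highest 32.2%, 19.6% and 32.1% of the lists. The summits stood apart, 190 bp upstream for ACTL6A, 25 bp downstream for BRG1 and 392 bp downstream, in intron 1, for NRF2. The NRF2 peak here had fewer fragments than that of *NQO1*, with Poisson intervals of 17.8 to 39.3 and 40.6 to 70.5. These intervals give counting error within 1 library and do not test the difference. None of the 3 peaks held a match to the core. The nearest, TGACTTGGC at chr16:83952683-83952691, was 553 bp upstream of the TSS and outside the peaks. The 250 bases before the TSS, chr16:83952990-83953239 on the plus strand, all within the NRF2 peak, are shown because they hold no core match. They do hold the AP-1 site TGACTCA, which lies inside all 3 peaks. The looser TGANNNNGC, which does not fix the C of the core, had 4 matches in the ACTL6A peak, 5 in the BRG1 peak and 3 in the NRF2 peak.
*OSGIN1* upstream: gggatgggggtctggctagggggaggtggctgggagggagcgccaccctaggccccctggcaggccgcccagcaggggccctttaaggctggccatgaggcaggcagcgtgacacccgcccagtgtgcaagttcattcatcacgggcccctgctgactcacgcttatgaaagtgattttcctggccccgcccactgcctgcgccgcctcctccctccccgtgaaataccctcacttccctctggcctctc

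The single distal NRF2 peak of the 10 genes was also at *OSGIN1*, at chr16:83950416-83950852, with its summit 2765 bp upstream of the MANE Select TSS. That summit was inside the annotated gene, 1408 bp downstream of another of its protein-coding starts, at 83949067. The peak had 23 fragments against 5.66 expected and ranked 4936 of 9045. The region's only IgG peak was at the same place: IgG 2 had 13 fragments against 2.19 expected at chr16:83950442-83950838, and all of its 397 bp lay in the NRF2 peak. ACTL6A had a peak of 9 fragments against 1.47 expected there (chr16:83950426-83950592), and BRG1 had none. When peaks shared with IgG 2 were left out, 0 of the 10 genes had a distal NRF2 peak. The part of the IgG 2 signal in this NRF2 peak was not tested. Distal NRF2 peaks were found in 9.52% of all genes and 6.76% had one without an NRF2 TSS peak, against 1 and 0 of the 10. An IgG 2 peak was in the region of 1.67% of all genes.

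*PIR* encodes pirin, an iron-binding nuclear protein, and lies on the minus strand at chrX:15384799-15493564 with its MANE Select TSS at 15493333. ACTL6A had a TSS peak of 8 fragments against 0.404 expected (chrX:15493266-15493428) and BRG1 of 16 against 0.532 (chrX:15493193-15493625), with summits 43 bp upstream and 6 bp downstream of the TSS. They ranked 5781 and 8639, in the highest 24.2% and 17.7%. Inside both peaks, 30 bp into the 5′ UTR of exon 1, was a match to the stricter core at chrX:15493299-15493307, 24 bp from the BRG1 summit. No NRF2 peak was there, and the nearest on the chromosome was 181545 bp away, near the start of *CLTRN*. *PIR* was thus the gene with the motif closest to its TSS, and its promoter was the only 1 to hold either form among the 8 of the 10 genes whose MANE Select start is in the RefSeq promoter table. A promoter of another *EPHX1* start in that table also held a core match.

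*ABCC1* encodes the multidrug resistance protein MRP1, a pump that exports glutathione conjugates, and spans chr16:15949138-16143257 on the plus strand. At its MANE Select TSS, 15949616, only BRG1 had a peak, with 14 fragments against 1.33 expected (chr16:15949231-15949511, rank 17453) and its summit 196 bp upstream. A stricter match at chr16:15949079-15949087, 533 bp upstream of the TSS, lay 144 bp outside that peak. The strongest peaks of the gene were inside it. In intron 5, 72643 bp downstream of the TSS, BRG1 had 40 fragments against 1.72 expected (chr16:16021977-16022370, rank 2232, highest 4.57%), close to the 43 fragments of *NQO1*. ACTL6A had a peak within it of 10 fragments against 0.479 (chr16:16022093-16022287, rank 4046), the highest ranked distal ACTL6A peak of the 10 genes. A stricter match at chr16:16022208-16022216 was 16 bp from the ACTL6A summit and 47 bp from the BRG1 summit, and no NRF2 peak was within 133372 bp of it. The ACTL6A peak is printed on the plus strand, where the match, which is on the minus strand, reads GCTGAGTCA.
*ABCC1* intron 5: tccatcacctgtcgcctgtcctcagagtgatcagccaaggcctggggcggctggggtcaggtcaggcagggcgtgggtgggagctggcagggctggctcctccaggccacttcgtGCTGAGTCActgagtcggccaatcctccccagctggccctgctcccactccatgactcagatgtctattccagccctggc

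Sites like those of *ABCC1* and *PIR*, with ACTL6A, BRG1 and the stricter motif but no NRF2 peak, were also found elsewhere. Of 196 BRG1 peaks away from a TSS that overlapped ACTL6A and held the stricter core, 41 (20.9%) overlapped an NRF2 peak, against 17.2% of all 5524 BRG1 peaks away from a TSS that overlapped ACTL6A. At a TSS the values were 39 of 70 (55.7%) and 56.1% of 6230. Without the requirement for ACTL6A, 8.90% of the 663 BRG1 peaks away from a TSS with the stricter core overlapped NRF2, against 4.88% of all BRG1 peaks there, and at a TSS 39.6% of 139 did, against 32.1%. For ACTL6A peaks the shares were 15.9% of 189 against 7.83% away from a TSS, and 58.3% of 48 against 48.2% at a TSS. In each of these 4 classes the NRF2 share was higher with the motif. Where ACTL6A and BRG1 overlapped the values differed less, and at a TSS the share was slightly lower with the motif. With the motif, the overlapping BRG1 peaks away from a TSS had a median of 27.5 fragments, against 17 for all of them. At a TSS the median was 38 against 28. Peak strength was not matched, so the part of the motif in the NRF2 share was not tested.

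**Figure D2:**
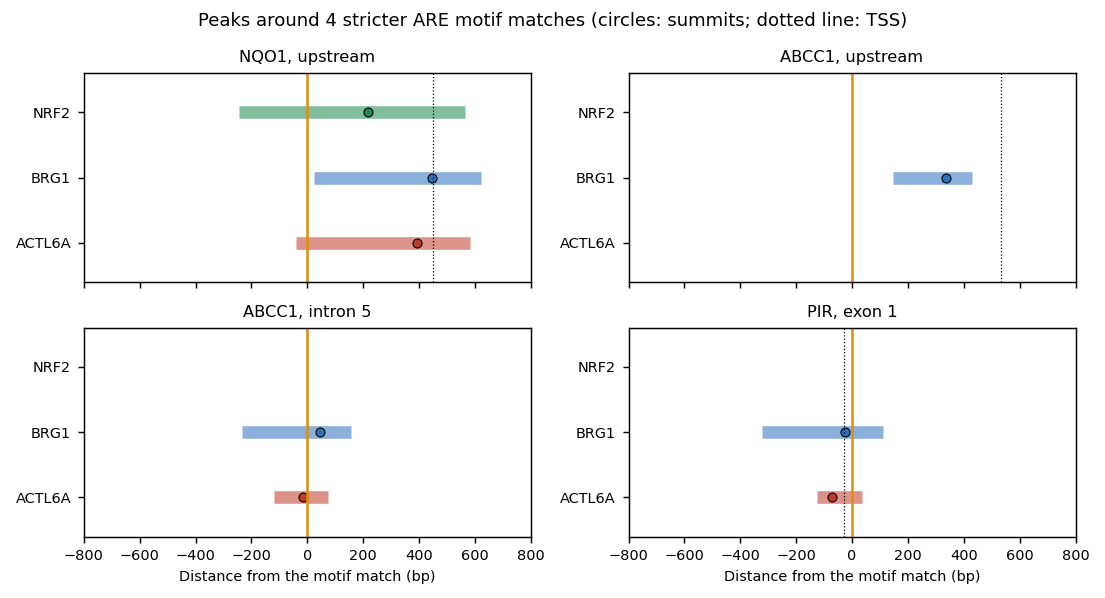
Peaks of the 3 antibodies (bars) and their summits (circles) around 4 matches to the stricter ARE core, by distance from the match in bp in the direction of transcription, with the TSS as a dotted line where it is in range. The match at *NQO1* lies in the NRF2 and ACTL6A peaks, those in *PIR* exon 1 and *ABCC1* intron 5 lie in ACTL6A and BRG1 peaks without NRF2, and that upstream of *ABCC1* lies in none.

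*EPHX1*, the microsomal epoxide hydrolase, lies on the plus strand at chr1:225810124-225845563 and starts at its first base. ACTL6A had 8 fragments against 0.449 expected at the TSS (chr1:225809811-225810075, rank 6288) and BRG1 21 against 1.01 (chr1:225809936-225810353, rank 7555), with summits 123 and 52 bp upstream. The NRF2 peak nearest to this TSS was 72219 bp from it, at the start of *TMEM63A*. A second ACTL6A and BRG1 site was just past the gene's 3′ end, at chr1:225845726-225845990 for ACTL6A (8 fragments) and chr1:225845686-225846206 for BRG1 (15 fragments), near the start of the lncRNA ENSG00000242861. A BRG1 peak of 6 fragments in intron 1, chr1:225823932-225824136, was distal by GENCODE but 75 bp from another *EPHX1* start in RefSeq. The 2 core matches within 1 kb of a start, TGACTGAGC and TGACTTGGC, were at an internal start 719 and 74 bp upstream of it, and neither was in a peak.

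The remaining reductases carried little. *AKR1B10*, which reduces aldehydes and retinal (chr7:134527567-134541412, plus strand), had no ACTL6A or NRF2 peak and 3 distal BRG1 peaks of 4, 5 and 7 fragments, the nearest summit 1396 bp into intron 1. The nearest NRF2 peak was 94494 bp from its TSS. *AKR1C1*, *AKR1C2* and *AKR1C3*, neighbours on chromosome 10 (4963253 to 5107686) that reduce steroid ketones, prostaglandins and reactive aldehydes, had no BRG1 or NRF2 peak in their regions. ACTL6A had 6 fragments in coding exon 7 of *AKR1C1* (chr10:4972494-4972837, rank 6720), 3 in its last exon, which is also within 10 kb of *AKR1C2*, and 3 at a peak upstream of the annotated *AKR1C3* gene, 61998 bp before its MANE Select TSS. The nearest NRF2 peak was 439163 bp from the TSS of *AKR1C1*, 398721 bp from that of *AKR1C2* and 308164 bp from that of *AKR1C3*. For all 3 it was the same peak, chr10:5402578-5403103.

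The *AKR1C* cluster nevertheless held 5 matches to the stricter core, of which 0 lay in any peak. The match 6339 bp upstream of the *AKR1C1* TSS (chr10:4957072-4957080) and that 5556 bp upstream of the *AKR1C2* TSS (chr10:5009409-5009417) were the same over the 29 bases compared, and each shared 20 of 29 bases with the *NQO1* site, as did the *ABCC1* intron 5 site. The 9 bases of the core, by which every site was found, are among the 20. The *AKR1C2* site, upstream of the MANE Select TSS, was inside the annotated gene and downstream of another of its protein-coding starts. Another match was 2663 bp upstream of *ABCC2* (chr10:99779973-99779981). These sites are shown with 10 bases to each side, 5′ to 3′ on the strand of the match, core in capitals, beside those of *PIR* and *ABCC1*.
*NQO1* -451 bp: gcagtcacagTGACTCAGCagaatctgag
*AKR1C1* -6339 bp: gcagtcagggTGACTCAGCagcttgcaca
*AKR1C2* -5556 bp: gcagtcagggTGACTCAGCagcttgcaca
*ABCC2* -2663 bp: aattccagagTGACTCAGCcataaggagg
*PIR* +30 bp: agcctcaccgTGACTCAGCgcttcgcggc
*ABCC1* -533 bp: tccttctgtgTGACTCAGCtttggagtca
*ABCC1* +72596 bp: gccgactcagTGACTCAGCacgaagtggc

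The near-identity of *AKR1C1* and *AKR1C2* bears on what could be mapped, since the peaks were called from uniquely mapped reads of 150 bp. Their promoters were 93.5% identical over 308 aligned bases, while *AKR1C3* was 71.0% identical to *AKR1C1* and 70.1% to *AKR1C2*. Within 1 kb of the TSS, 82.5% of 150-base stretches of *AKR1C1* and of *AKR1C2* occurred once in the genome, and 51.3% of 50-base stretches. In the other 8 genes 100% of the 150-base stretches did. All 150-base stretches that hold the *AKR1C1* -6339 bp and *AKR1C2* -5556 bp matches were unique, as were 83.1% of the 50-base stretches there. The part of mapping in the missing peaks was not tested. The 250 bases before each TSS are set out to show how alike the pair is (*AKR1C1*, chr10:4963165-4963414, plus strand; *AKR1C2*, chr10:5003858-5004107, minus strand).
*AKR1C1* upstream: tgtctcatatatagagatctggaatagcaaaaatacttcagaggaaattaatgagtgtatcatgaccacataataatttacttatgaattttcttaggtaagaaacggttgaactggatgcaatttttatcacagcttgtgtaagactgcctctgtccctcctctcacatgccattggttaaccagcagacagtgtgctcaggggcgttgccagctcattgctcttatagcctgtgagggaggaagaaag
*AKR1C2* upstream: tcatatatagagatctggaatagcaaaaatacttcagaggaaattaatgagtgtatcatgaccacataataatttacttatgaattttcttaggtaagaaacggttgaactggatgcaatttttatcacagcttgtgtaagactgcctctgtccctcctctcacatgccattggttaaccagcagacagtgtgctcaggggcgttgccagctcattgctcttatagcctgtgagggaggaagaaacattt

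*ABCC2* encodes MRP2, the pump that moves conjugates into bile and urine, and spans chr10:99782640-99852594 on the plus strand. Its highest ranked peak was a BRG1 peak 6524 bp upstream of the TSS, chr10:99776048-99776195, with 15 fragments against 1.05 expected (rank 13931, highest 28.6%). BRG1 also had 5 fragments in intron 29 and ACTL6A 3 in intron 7. The nearest NRF2 peak was 50108 bp from the TSS, at the shared start of *COX15* and *CUTC*.

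Distal peaks were in the main weak. ACTL6A had a distal peak at 8 of the 10 genes, against 37.4% of all genes, and BRG1 at 5, against 59.0%. The genes are of unequal length, and per 100 kb of region ACTL6A had 1.38 distal peaks against 0.685 over all genes, BRG1 2.38 against 1.67 and NRF2 0.125 against 0.125. These densities count a peak once for each gene, so the ACTL6A peak near both *AKR1C1* and *AKR1C2* counts for each, as 11 in all. The 10 separate distal ACTL6A peaks had 3 to 10 fragments (median 5) and the 19 distal BRG1 peaks 3 to 40 (median 6), 9 of the latter in *ABCC1*. With a -log10 q of at least 5, ACTL6A kept a distal peak at 2 genes. The share of all genes at that cutoff was not computed, so the 2 cannot be set against a background. No gene of the 10 was without any antibody peak in its region, and 13.5% of all genes were, so the count lies near that share. At *AKR1C2* and at *AKR1C3* it rests on 1 ACTL6A peak of 3 fragments. ACTL6A and BRG1 shared a distal site at 2 places, *ABCC1* intron 5 and the 3′ end of *EPHX1*.

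The genes with and without TSS peaks differed in the CpG content of their starts. The CpG ratio, observed over expected in 1 kb around the MANE Select TSS, was 0.846 at *ABCC1*, 0.874 at *EPHX1* and 0.650 at *PIR*, and ran from 0.165 (*ABCC2*) to 0.273 (*AKR1C3*) at the 5 genes with no TSS peak. The starts of *NQO1* (0.477) and *OSGIN1* (0.350) were in between. Over all genes with a ratio of at least 0.6, BRG1 had a TSS peak at 81.2%, ACTL6A at 49.7% and NRF2 at 38.3%, and of the 3 genes here BRG1 was at 3, ACTL6A at 2 and NRF2 at 0. Below 0.6 the shares of all genes were 28.6%, 16.1% and 7.50%, and of the 7 genes here each antibody was at the TSS of 2, *NQO1* and *OSGIN1*. NRF2 was called at 2 of the 7 CpG-poor starts here and at 0 of the 3 CpG-rich ones. These are too few genes to set the group apart from all genes.

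**Figure D3:**
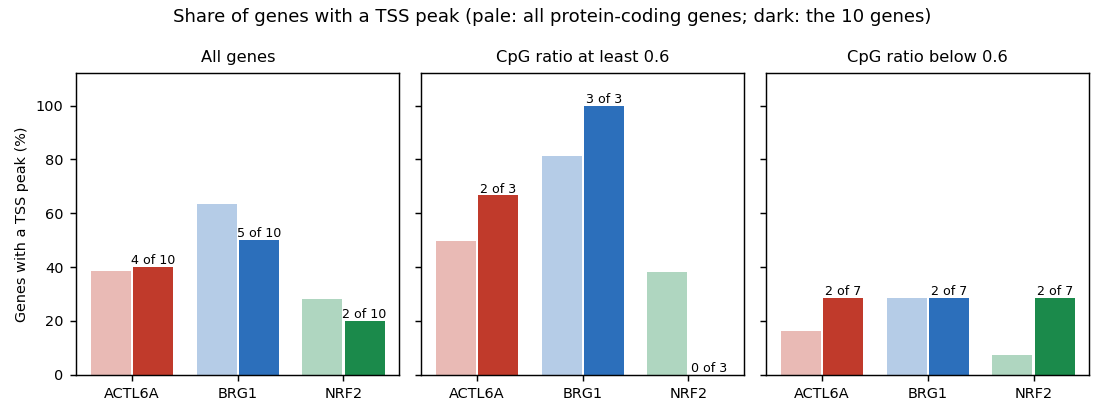
Percentage of genes with a TSS peak of each antibody among all protein-coding genes (pale bars) and among the 10 genes (dark bars, counts above), for all genes and for those with a CpG ratio of at least 0.6 or below 0.6. Among all genes, NRF2 was at 38.3% of CpG-rich and 7.50% of CpG-poor starts, while among the 10 genes it was at 0 of 3 and 2 of 7.

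Relatives and other targets gave a wider view. Of 16 related reductases and pumps, 12 had a BRG1 TSS peak, 6 ACTL6A and 4 NRF2, the last being *NQO2* (33 NRF2 fragments), *UGDH* (30), *CBR1* (24) and *ABCC5* (9). The *ABCC5* peak was among the weakest of its list, at rank 9008 of 9045. Over all genes 63.5% had a BRG1 TSS peak, 38.5% ACTL6A and 28.1% NRF2, and the counts of the relatives lie near these shares. *AKR1C4*, *AKR1B15*, *ABCB1* and *ABCC3* had no TSS peak in any antibody list. *AKR1B1* and *ALDH3A1*, 2 of the 16, had a distal NRF2 peak and none at the TSS, against 6.76% of all genes. A distal IgG 2 peak was found at 1 of the 16, and overlap of these NRF2 peaks with IgG was not examined. Of 12 other NRF2 targets, which act in glutathione, thioredoxin, NADPH and haem metabolism or autophagy or, as *MAFG*, encode a binding partner of NRF2, all 12 had a BRG1 TSS peak, 7 ACTL6A and 8 NRF2. *TXNRD1*, a thioredoxin reductase, had the most NRF2 fragments of them, 73, above the 54 of *NQO1*, and *HMOX1*, haem oxygenase, the fewest, 17. *GCLM*, *SLC7A11*, *ME1* and *MAFG* had no NRF2 TSS peak.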

How the data were processed

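CUT&Tag libraries of SNU638 cells, 1 each for ACTL6A, BRG1 and NRF2 and 2 for IgG, were analysed as peak lists. The authors mapped paired-end reads with BWA to hg38 and called peaks from uniquely mapped reads with MACS2 at a q-value below 0.05; fastp 0.23.0 is also named in the submitters' processing notes, and the caller's control is not given in the sources used here. Each deposited peak has a score (10 times its -log10 q), a fold enrichment, which is a ratio with a pseudocount of 1, the caller's -log10 p and -log10 q, and a summit offset.

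Peaks were set against GENCODE release 44 on GRCh38, with a TSS distance of 1 kb, a flank of 10 kb and an overlap of at least 1 bp. Ranks are by -log10 q. Fragments at a summit are the whole number that gives both fold and p-value within 0.001, found for at least 99.1% of peaks. All 10 genes were named, with every TSS peak, NRF2 peak, shared distal peak and best distal peak per list. Genes and lists were chosen with earlier results of these data known, and the uniqueness of sequence and the motif shares of BRG1 peaks after values were seen. Protein identity was not computed. Routines were tested on simulated data. Python 3.11.15, pandas 2.3.3, SciPy 1.17.1, pysam 0.24.0, Biopython 1.88, matplotlib 3.10.9 and samtools 1.23.1 were used.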

Additional observations from a re-analysis of the deposited data

How the results depend on the processing

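Of 91 counts recomputed under 15 alternatives, 74 stayed within 1.5 times the reported count. The shares over all genes were not recomputed under these alternatives. With a -log10 q of at least 5, ACTL6A kept a distal peak at 2 genes, NRF2 at 0, and 1 NRF2 peak overlapped ACTL6A. With the highest 5000 peaks of each list, TSS peaks of ACTL6A and of BRG1, distal peaks of ACTL6A and of BRG1, and NRF2 peaks overlapping BRG1 and ACTL6A each fell to 1, in both TSS counts at NQO1. The count of genes with a distal NRF2 peak, which rests on OSGIN1, was 0 with peaks shared with either IgG list left out. It was also 0 with a TSS distance of 3 kb. When IgG 2 alone was used it was 0. When IgG 1 alone was used it stayed at 1, which was bound to be so, since IgG 1 had no peak in the regions. With 50 kb to each side, 4 NRF2 peaks overlapped BRG1 and 2 genes had a core match in an NRF2 peak; at least 50% of both peaks shared left 1 overlap with ACTL6A. The looser TGANNNNGC was in an NRF2 peak at 2 genes, and within 100 bp of an NRF2 summit the core was at 0. NRF2 TSS peaks were at 2 genes under all of the alternatives run for them, and 0 genes had a distal NRF2 peak without one at the TSS in all of theirs. No paired analysis was possible because no antibody had more than 1 library. A missing NRF2 peak does not exclude weaker signal, since the weakest called NRF2 peak had 8 fragments and the lowest number expected at an NRF2 peak was 1.48, against 0.182 for ACTL6A and 0.271 for BRG1.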
